A study of Homo sapiens with 8 samples.

Results

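Class I histone deacetylases and their co-repressor partners were examined in RNA-seq of cultured cells labelled HepG2, a liver cancer cell line of human origin. The members were listed by name: the class I enzymes HDAC1, HDAC2, HDAC3 and HDAC8, the scaffolds SIN3A and SIN3B, the co-repressors NCOR1 and RCOR1, and the NuRD subunit MTA1. All 9 had a row in a table of 14526 genes. The 4 control cultures and the 4 cultures given sodium benzoate (SB) at 10 mM for 24 h were grown in the same medium, DMEM with fetal bovine serum. The cultures of a condition are given as biological replicates. SB is the salt of benzoic acid, used here to raise benzoylation of histone lysines, and the comparison asks which transcripts differ after it.

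Histone deacetylases take acyl groups, chiefly acetyl, off lysines of histones and other proteins. HDAC1 and HDAC2 are closely related enzymes that work inside large complexes, among them Sin3, NuRD, CoREST and MiDAC, which transcription factors bring to genes. HDAC3 works with NCOR1 in the NCoR complex, and HDAC8 acts largely alone, with the cohesin subunit SMC3 as its best known substrate.

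Levels are RPKM, reads scaled to gene length and library size, so a comparison between genes rests on the counted gene lengths. Fold changes are SB minus control on the log2(RPKM + 1) scale, with the standard error (SE) and a p-value from limma adjusted over all 14526 genes (threshold 0.05). Reads recovered from the RPKM numbered between 36990091 and 44492817 in the control libraries and between 37161801 and 44878446 in the SB libraries. The 9 members drew between 1943 and 18514 reads each in a library, and for the steadiest of them counting error is about as large as the spread between replicates. Control replicate 1 stood apart: it was the control farthest from the control mean for 66.9% of genes, and GC content accounted for 50.7% of the gene-to-gene variance of its distance to the other controls. Of 20 hepatocyte markers, 17 had no row, among them ALB, AFP, APOA1 and HNF4A, while TF was at 0.192 RPKM and CPS1 at 6.57 RPKM in control. The HepG2 label is therefore used as the labels give it, without support from these markers. Summed hepatocyte markers ranged from 6.87 to 7.70 RPKM in control and from 11.95 to 12.3 RPKM in SB. Of 10 neuronal markers 6 had a row, and their sum ranged from 90.5 to 99.8 RPKM in control and from 64.4 to 66.7 RPKM in SB, a difference made by NEFL and NEFM, which fell, while the other 4 (INA, TUBB3, MAP2 and SYP) rose past the threshold. Of 10 fibroblast markers 5 had a row, mostly VIM by level, with a sum from 383 to 421 RPKM in control and from 566 to 588 RPKM in SB, while COL3A1 in that list fell. Of 5 blood cell markers, 4 had no row (PTPRC, CD3E, CD14 and HBB). The part of these differences in the results was not tested.

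The promoters of the 3 most abundant enzymes are shown because their transcripts moved in different directions, HDAC1 up and HDAC2 and HDAC3 down. Each is the 250 bases before the RefSeq start in GRCh38.p14, 5′ to 3′ on the gene's strand, and capitals mark GGGCGG (the GC box), CCAAT or TATAAA on either strand. HDAC1 lies at chr1:32291833-32292082 (+), HDAC2 at chr6:113971149-113971398 (-) and HDAC3 at chr5:141636850-141637099 (-).
HDAC1: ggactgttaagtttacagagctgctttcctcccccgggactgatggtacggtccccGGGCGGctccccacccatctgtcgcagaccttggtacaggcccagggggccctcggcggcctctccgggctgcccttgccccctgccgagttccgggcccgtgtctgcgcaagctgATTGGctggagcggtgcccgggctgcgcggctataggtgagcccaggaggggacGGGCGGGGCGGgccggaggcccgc
HDAC2: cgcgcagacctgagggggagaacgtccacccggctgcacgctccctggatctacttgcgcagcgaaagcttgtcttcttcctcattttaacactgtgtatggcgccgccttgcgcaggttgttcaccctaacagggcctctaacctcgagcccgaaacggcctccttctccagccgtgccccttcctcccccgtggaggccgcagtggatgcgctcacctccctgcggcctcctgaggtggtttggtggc
HDAC3: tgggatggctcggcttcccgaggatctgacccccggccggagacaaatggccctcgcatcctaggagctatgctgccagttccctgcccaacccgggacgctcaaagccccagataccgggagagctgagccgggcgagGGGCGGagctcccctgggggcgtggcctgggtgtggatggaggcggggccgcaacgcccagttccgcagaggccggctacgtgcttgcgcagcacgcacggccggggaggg
The HDAC1 window held 3 GGGCGG, of which a pair share their last and first base, and 1 CCAAT, read on the other strand. The HDAC2 window held none of the 3 motifs, and the HDAC3 window held 1 GGGCGG. Of 35116 promoter windows of the same length, 42.6% held GGGCGG, 32.0% CCAAT and 10.7% TATAAA, so these matches are common and describe the letters only.

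Of the 9 members, 4 rose after SB (HDAC1, SIN3B, NCOR1 and MTA1), 4 fell (HDAC2, HDAC3, HDAC8 and SIN3A), and RCOR1 did not pass the test. Over all rows, 65.6% of genes passed it, 33.0% higher and 32.6% lower, so a call for 8 of 9 members is to be read against a table in which most genes were called. The groups did not overlap for the same 8 members, which held for 61.5% of all genes. The changes were small: the median size was 0.25 log2 units for the members and 0.20 for all genes, and the median signed change was -0.05 and 0.00. In bulk RNA a lower level can come from fewer cells of a type or from less RNA per cell, and these cannot be told apart.

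**Figure D1:**
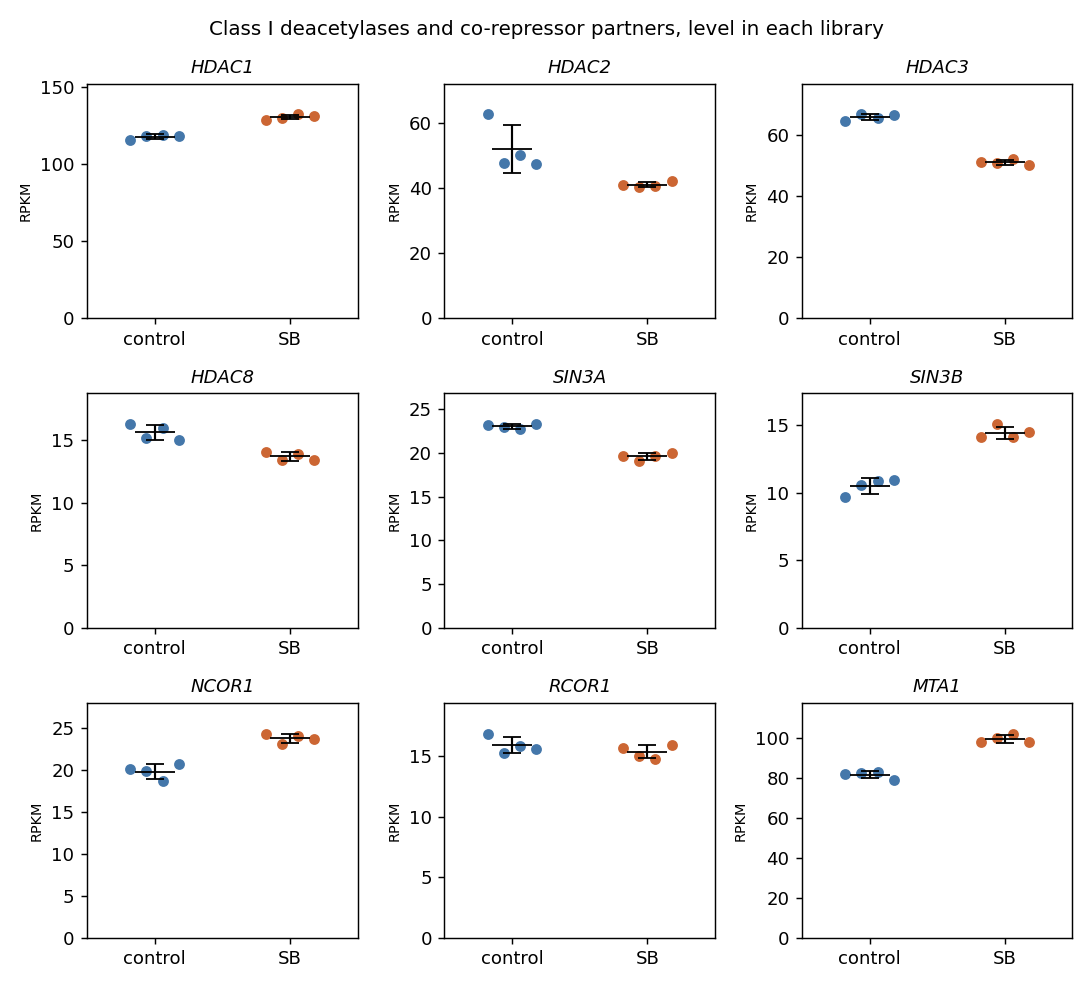
Level of each of the 9 members in RPKM (vertical axes, each from 0) in the 4 control and the 4 SB libraries. Points are libraries, left to right by replicate number, and the bars give the mean and SD; the groups overlap for RCOR1 alone, and the HDAC2 point at 62.8 RPKM is control replicate 1.

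HDAC1 was the most abundant of the 9 by RPKM and the only class I enzyme that rose. Its level was 115, 118, 118 and 118 RPKM in control replicates 1 to 4 and 129, 129.5, 132 and 131 RPKM in SB replicates 1 to 4. Every SB library lay above every control library. The mean went from 117 ± 1.56 to 130.3 ± 1.502 RPKM (SD, n = 4 each), a log2 fold change of 0.15 (SE 0.03, limma adjusted p = 0.00181). That level is higher than that of 96.7% of genes in control. Its place above HDAC2 rests on the counted length, 2091 bases for HDAC1 against 6929 for HDAC2. By reads HDAC2 was ahead, with a mean of 13116 per library against 10552 for HDAC1.

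HDAC2, the near twin of HDAC1, moved the other way. It was at 62.8, 47.7, 50.4 and 47.4 RPKM in control and 40.9, 40.4, 40.7 and 42.1 RPKM in SB. The SB libraries were tightly grouped below all controls, and control replicate 1 was far above the other controls. The mean fell from 52.0 ± 7.28 to 41.0 ± 0.746 RPKM (SD, n = 4 each), a log2 fold change of -0.33 (SE 0.08, limma adjusted p = 0.00532). Without control replicate 1 the log2 fold change was -0.23, still past the threshold.

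HDAC3, the catalytic subunit of NCoR, fell. It was at 64.4, 66.7, 65.5 and 66.3 RPKM in control and 50.9, 50.8, 51.9 and 50.03 RPKM in SB, so the groups were far apart with little spread. The mean went from 65.7 ± 0.993 to 50.9 ± 0.755 RPKM (SD, n = 4 each), a log2 fold change of -0.36 (SE 0.03, limma adjusted p = 8.04e-06).

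HDAC8, the least abundant class I enzyme, was at 16.3, 15.2, 16.0 and 15.1 RPKM in control and 14.1, 13.4, 13.9 and 13.4 RPKM in SB. The SB libraries lay below the controls by a narrow margin. The mean went from 15.6 ± 0.608 to 13.7 ± 0.349 RPKM (SD, n = 4 each), a log2 fold change of -0.18 (SE 0.04, limma adjusted p = 0.00250). With library sizes not scaled by the authors' TMM factors (trimmed mean of M-values, which scale each library by its average log ratio to a reference library after extreme genes are trimmed), it was -0.08 and no longer past the threshold (limma adjusted p = 0.0840).

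The Sin3 scaffolds, large proteins that hold HDAC1 or HDAC2 together with DNA-bound repressors, changed in opposite directions. SIN3A was at 23.2, 22.9, 22.7 and 23.3 RPKM in control and 19.6, 19.1, 19.6 and 20.04 RPKM in SB, a log2 fold change of -0.22 (SE 0.03, limma adjusted p = 0.000186). SIN3B was at 9.67, 10.53, 10.8 and 10.9 RPKM in control and 14.1, 15.1, 14.1 and 14.4 RPKM in SB, a log2 fold change of 0.42 (SE 0.04, limma adjusted p = 2.66e-05), the largest of the 9. Neither gene had overlapping groups.

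MTA1, a NuRD subunit that binds and activates HDAC1 and HDAC2, rose. It was at 82.2, 82.3, 82.8 and 78.8 RPKM in control and 98.2, 100.1, 102 and 97.9 RPKM in SB. Control replicate 4 was the low one of the controls, and all SB libraries lay above all controls. The log2 fold change was 0.29 (SE 0.03, limma adjusted p = 5.31e-05).

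Of the remaining co-repressors, NCOR1 rose and RCOR1 did not pass the test. NCOR1, which binds HDAC3 and unliganded nuclear receptors, was at 20.1, 19.8, 18.6 and 20.6 RPKM in control and 24.3, 23.0, 24.0 and 23.7 RPKM in SB, without overlap. Its log2 fold change was 0.25 (SE 0.04, limma adjusted p = 0.000341). RCOR1, the CoREST scaffold that joins HDAC1 or HDAC2 to the demethylase KDM1A, was at 16.9, 15.3, 15.9 and 15.6 RPKM in control and 15.7, 15.1, 14.8 and 15.9 RPKM in SB. The groups overlapped, with a log2 fold change of -0.05 (SE 0.04, 95% interval -0.14 to 0.04, limma adjusted p = 0.330). For each of the other 8 members the exact two-sided permutation p of 4 against 4 was 0.0286, the smallest that this design can give, and for RCOR1 it was 0.286.

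**Figure D2:**
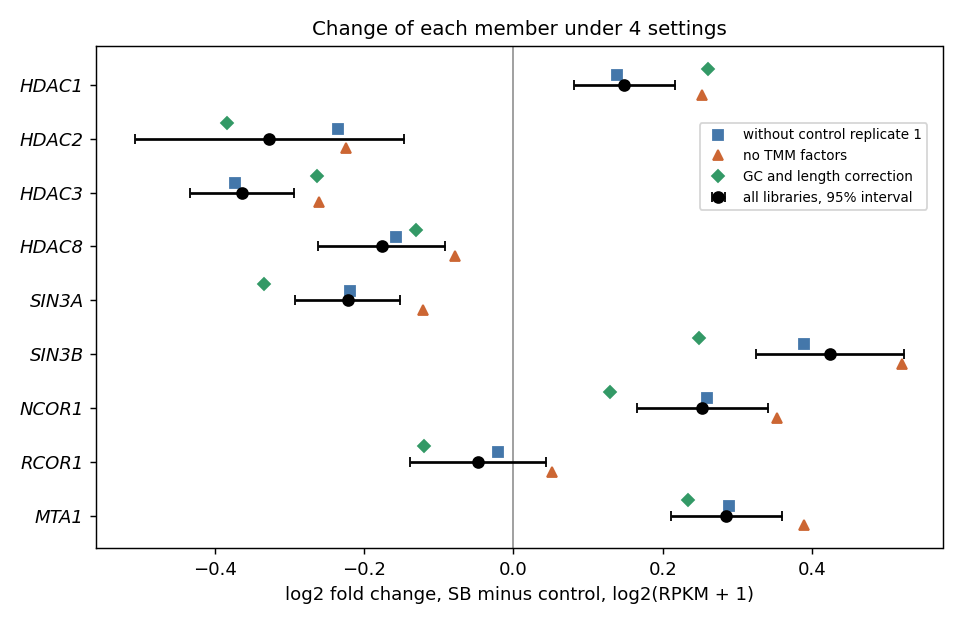
Log2 fold change of each member (horizontal axis, SB minus control on the log2(RPKM + 1) scale). Black points with bars give the fit on all libraries with its 95% interval, and coloured symbols give the fit without control replicate 1, without TMM factors, and after the GC and length correction; RCOR1 alone lies on both sides of 0, from -0.12 to 0.05.

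Some sizes depended on the scaling. Without TMM factors the median log2 fold change of all genes was 0.08 (0.00 as deposited), the change of HDAC1 went to 0.25, that of SIN3A to -0.12, and that of RCOR1 to 0.05. Correction for GC content and length, chosen after the data were seen, gave 0.26 for HDAC1, -0.33 for SIN3A, 0.25 for SIN3B and 0.13 for NCOR1, all still past the threshold, and -0.12 for RCOR1, which then passed it (limma adjusted p = 0.00816). Reads of overlapping genes could not be separated with certainty, since the library kit keeps strand but the strand setting of the read counting is not given in the sources used here: NCOR1 overlaps TTC19, and HDAC2 overlaps the antisense RNA HDAC2-AS2.

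The order of levels in control was HDAC1, MTA1, HDAC3, HDAC2, SIN3A, NCOR1, RCOR1, HDAC8 and SIN3B. RCOR1 and HDAC8 were the only neighbours whose ranges overlapped, with RCOR1 higher in 3 of 4 libraries. In SB the order was HDAC1, MTA1, HDAC3, HDAC2, NCOR1, SIN3A, RCOR1, SIN3B and HDAC8. NCOR1 had thus passed SIN3A, and SIN3B had passed HDAC8, although the ranges of SIN3B overlapped those of both RCOR1 and HDAC8.

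HDAC1 took a larger share of the summed class I transcript after SB, and HDAC2, HDAC3 and HDAC8 a smaller one. The summed level was between 247 and 259 RPKM in control and between 234 and 239 RPKM in SB, without overlap, with means of 251 ± 5.41 and 236 ± 1.999 RPKM (SD, n = 4 each). This fall of the sum was not kept without TMM factors, where the means were 242 ± 3.81 and 245 ± 2.57 RPKM with overlap (exact permutation p = 0.257, n = 4 each), whereas the shares do not depend on the library scaling. The share of HDAC1 went from 46.8% ± 1.57 to 55.2% ± 0.249, and that of HDAC3 from 26.2% ± 0.939 to 21.6% ± 0.269 (SD, n = 4 each). HDAC2 went from 20.7% ± 2.41 to 17.4% ± 0.328 and HDAC8 from 6.23% ± 0.137 to 5.82% ± 0.147 (SD, n = 4 each). Each of these 5 values gave an exact permutation p of 0.0286, also after adjustment over the 5. That is the smallest p this design can give. HDAC1 was higher and HDAC2, HDAC3 and HDAC8 lower in every SB library, so the HDAC1 share had to separate the groups. The shares are therefore a description only. They are tied to each other because they add up to the whole, and their sizes depend on the counted gene lengths.

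Ratios between paralogues within a library do not depend on the library scaling, but their size depends on the counted gene lengths. The 4 pairs were chosen after their values were seen. HDAC1 over HDAC2 was 1.83, 2.47, 2.35 and 2.496 in control and 3.14, 3.20, 3.25 and 3.11 in SB, higher in every SB library. SIN3B over SIN3A was 0.418, 0.459, 0.478 and 0.469 in control and 0.717, 0.789, 0.717 and 0.720 in SB, so SIN3B came nearer to SIN3A without reaching it. MTA1 over MTA2, the other main NuRD paralogue, went from 1.01 ± 0.0702 to 1.35 ± 0.0337, and RCOR1 over RCOR2 from 1.65 ± 0.158 to 2.18 ± 0.196 (SD, n = 4 each). These 4 ratios had no overlap between groups, which is a description only, because the changes of both genes of each pair were known when the pairs were chosen. The paralogues differ in GC content, 47.5% for HDAC1 against 37.8% for HDAC2 and 47.1% for SIN3A against 60.4% for SIN3B. For RCOR1 it was 45.4% against 64.2% for RCOR2, and for MTA1 61.6% against 55.5% for MTA2. After the GC and length correction the log2 fold changes were 0.26 for HDAC1, -0.38 for HDAC2, 0.25 for SIN3B and -0.33 for SIN3A. The ratios themselves were not corrected, and the part of GC content in them was not tested.

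**Figure D3:**
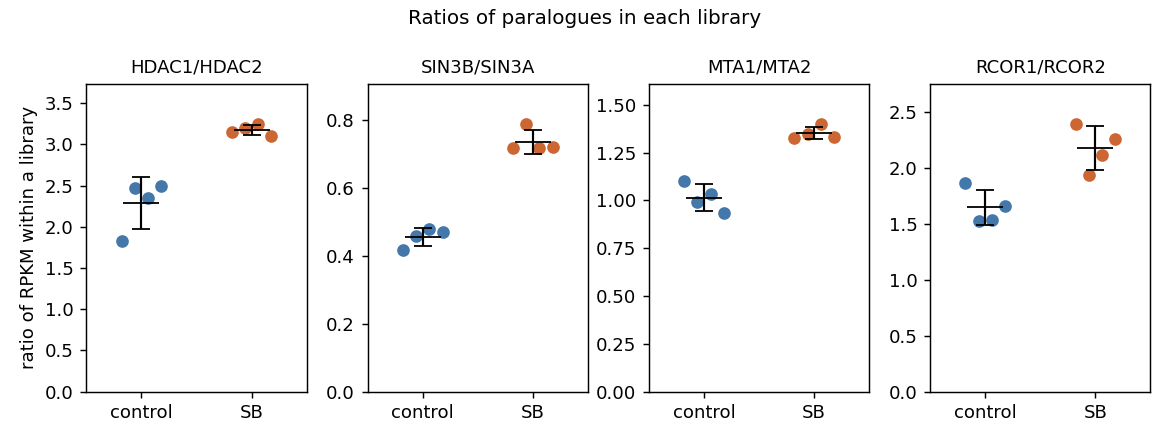
Ratio of RPKM between paralogues within each library (vertical axes, each from 0), control against SB. Points are libraries and bars the mean and SD of 4; the groups are apart for all 4 pairs, for instance 2.29 against 3.18 for HDAC1 over HDAC2.

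The other subunits of the complexes were listed by complex, leaving out the 9 members. Of 44 such genes, 7 rose, 21 fell and 16 did not pass the test, with a median log2 fold change of -0.11 beside 0.00 for all genes. The share past the threshold was 63.6%, near the 65.6% of the table. By complex this share was 68.8% for Sin3, 58.3% for NuRD, 60.0% for CoREST, 80.0% for NCoR and 66.7% for MiDAC. The split between directions depended on the scaling: without TMM factors 15 partner genes rose and 14 fell, with a median of -0.02, while over all genes the calls went from 4787 higher and 4740 lower to 6253 and 3357. The corrected fit for GC content and length gave 6 higher and 31 lower among the partners.

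In the Sin3 complex, 3 of 16 subunits rose, 8 fell and 5 did not pass. SAP30L, a paralogue of the linker SAP30, rose from 3.18 ± 0.0865 to 5.40 ± 0.0954 RPKM (SD, n = 4 each), a log2 fold change of 0.61 (limma adjusted p = 6.48e-07). SAP30 itself fell from 17.7 ± 1.99 to 12.7 ± 0.636 RPKM, a log2 fold change of -0.44 (limma adjusted p = 0.000409). OGT, the enzyme that puts N-acetylglucosamine on proteins and binds Sin3, rose from 65.4 ± 2.63 to 95.1 ± 1.69 RPKM, 0.53 on the log2 scale (limma adjusted p = 2.77e-06). ING2, which reads methylated lysine on histone H3, fell from 5.19 ± 0.528 to 3.29 ± 0.282 RPKM, a log2 fold change of -0.53 (limma adjusted p = 9.78e-05).

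In NuRD, 2 of 12 subunits rose, 5 fell and 5 did not pass. RBBP7, a histone-binding subunit shared with Sin3, fell from 194 ± 10.9 to 145 ± 0.976 RPKM, a log2 fold change of -0.42 (limma adjusted p = 2.14e-05). MTA1's paralogues went the other way from MTA1: MTA3 fell by 0.32 on the log2 scale (limma adjusted p = 0.000991) and MTA2, named after its values were seen, fell by 0.13 (limma adjusted p = 0.0238). The MTA2 call was lost without TMM factors (-0.02, limma adjusted p = 0.668), and without control replicate 2 (-0.11), control replicate 4 (-0.10), SB replicate 3 (-0.12) or SB replicate 4 (-0.13). MBD3, a NuRD subunit of the methyl-CpG-binding family, rose from 56.1 ± 7.71 to 76.1 ± 6.28 RPKM, 0.44 on the log2 scale (limma adjusted p = 0.00321).

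In CoREST, 1 of 10 subunits rose, 5 fell and 4 did not pass. The gene that rose was REST, the repressor that brings CoREST to neuronal genes, at 12.5 ± 0.726 RPKM in control and 16.6 ± 0.622 RPKM in SB, 0.39 on the log2 scale (limma adjusted p = 5.91e-05). RCOR2 fell from 9.69 ± 0.593 to 7.09 ± 0.504 RPKM, a log2 fold change of -0.40 (limma adjusted p = 0.000156). The demethylase KDM1A, named after its values were seen, fell from 100.4 ± 2.79 to 80.0 ± 0.210 RPKM (limma adjusted p = 2.15e-05). RCOR3, also named after its values were seen, fell by 0.20 on the log2 scale (limma adjusted p = 0.0135), a call lost without TMM factors (-0.11, limma adjusted p = 0.123). Both paralogues of RCOR1 and its partners KDM1A and HDAC2 were thus lower, and its partner HDAC1 was higher. RCOR1 itself did not pass the test, except as lower after the GC and length correction (-0.12).

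In NCoR, 1 of 5 subunits rose, 3 fell and 1 did not pass. TBL1XR1, which exchanges co-repressor for co-activator, fell by 0.32 on the log2 scale (limma adjusted p = 0.000109). GPS2 fell by 0.17 (limma adjusted p = 0.00481), and lost the call both without TMM factors and after the GC and length correction. HDAC3 and these small subunits were therefore lower, and the large co-repressor NCOR1 higher.

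MiDAC, a mitotic deacetylase complex, had 3 listed genes, of which 2 fell and 1 did not pass. DNTTIP1 fell from 34.5 ± 1.39 to 28.9 ± 1.02 RPKM, a log2 fold change of -0.25 (limma adjusted p = 0.000498), a call lost after the GC and length correction (-0.13, limma adjusted p = 0.0665). TRERF1 was at 1.28 ± 0.0739 RPKM in control and 1.08 ± 0.0438 RPKM in SB, a log2 fold change of -0.13 (limma adjusted p = 0.0103), not past the threshold without TMM factors.

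Cohesin, the ring that holds sister chromatids together and the pathway of HDAC8, had 11 listed genes: 1 rose, 4 fell and 6 did not pass. The share past the threshold was 45.5%, below the 65.6% of all genes. SMC3, whose acetyl group HDAC8 removes, fell from 120.4 ± 12.9 to 88.4 ± 2.33 RPKM, a log2 fold change of -0.44 (limma adjusted p = 0.000332). RAD21, the ring's cleavable subunit, fell by 0.19 (limma adjusted p = 0.00654), but not past the threshold without TMM factors. PDS5A, a cohesin regulator, rose from 28.1 ± 1.01 to 32.3 ± 0.439 RPKM, 0.19 on the log2 scale (limma adjusted p = 0.000994). Without control replicate 1, 4 genes of the list rose and 6 fell, and without SB replicate 2, 3 or 4 each, 2 fell.

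**Figure D4:**
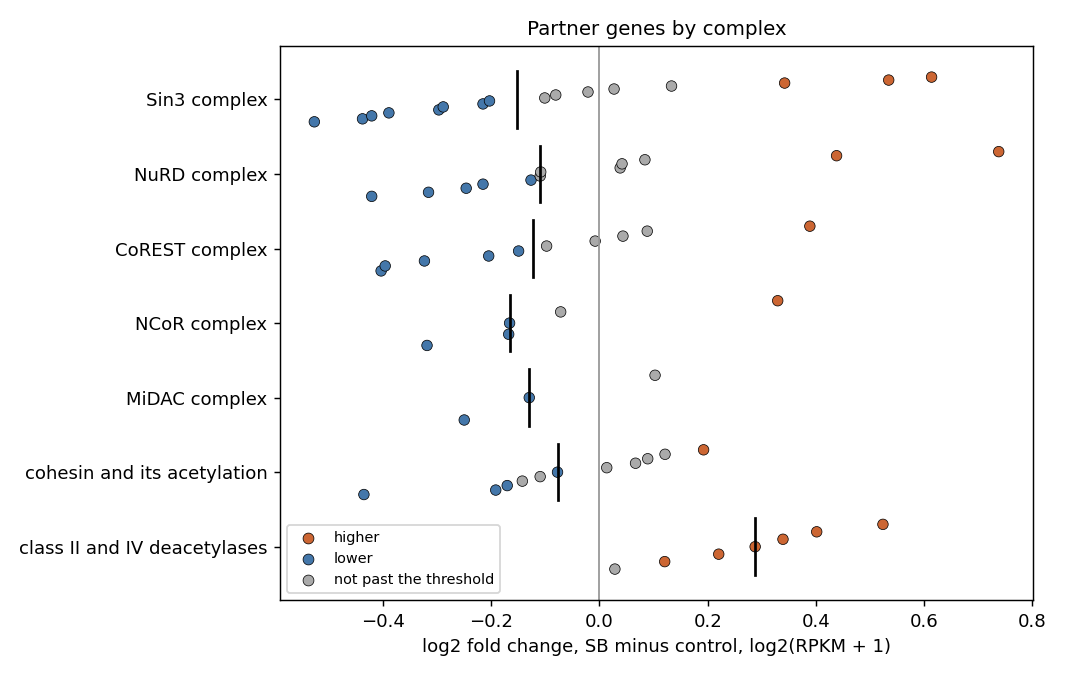
Log2 fold change (horizontal axis, SB minus control) of each partner gene by list. Points are genes, coloured by whether they were higher, lower or not past the limma threshold, and the vertical bars are list medians; the 5 complexes have medians from -0.17 to -0.11, and the class II and IV enzymes a median of 0.29.

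Of the 7 class II and IV deacetylase genes, 6 rose, 0 fell and HDAC11 did not pass, beside 33.0% of all genes higher, and HDAC1 alone of the class I enzymes rose. The difference between the classes was not tested. After the GC and length correction, 4 of the 7 rose. Among genes with a mean of at least 1 RPKM, 5 rose. HDAC9, named after its values were seen, is below that level, at 0.590 RPKM in control and 0.728 RPKM in SB. HDAC10 went from 5.24 ± 0.949 to 7.90 ± 0.589 RPKM, 0.52 on the log2 scale (limma adjusted p = 0.00162), and HDAC7 from 6.64 ± 1.04 to 9.02 ± 0.303 RPKM, 0.40 on the log2 scale (limma adjusted p = 0.00308). HDAC11, named after its values were seen, was at 4.73 ± 0.644 and 4.81 ± 0.123 RPKM (limma adjusted p = 0.753). The highest mean of a class II or IV gene was that of HDAC6, 18.3 RPKM in control and 22.6 RPKM in SB. HDAC1, HDAC2 and HDAC3 each stood above all of them.

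The sirtuins, deacylases that need NAD+, had 2 of 7 genes higher, 2 lower and 3 not past. The share past the threshold was 57.1%, beside 65.6% of all genes. SIRT7 rose by 0.19 on the log2 scale (limma adjusted p = 0.0171), SIRT5 by 0.15 (limma adjusted p = 0.0240), and SIRT1 fell by 0.20 (limma adjusted p = 0.0195) and SIRT6 by 0.17 (limma adjusted p = 0.0412). The SIRT5 and SIRT6 groups overlapped. SIRT5 lost the call without control replicate 2 (0.12) or 3 (0.14) and without SB replicate 1 (0.13) or 4 (0.12), and after the GC and length correction (0.07, limma adjusted p = 0.119). SIRT6 lost it without any one library other than control replicate 1 (-0.19 to -0.12), and both SIRT1 and SIRT6 lost it without TMM factors (-0.10 and -0.08).

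Inhibitors of class I enzymes are known to raise some genes and lower others, and 12 such genes were listed with their usual direction. Of 9 listed to rise, 4 rose, 4 fell and 1 did not pass, beside 33.0% of all genes higher and 32.6% lower. CDKN1A, the cell cycle inhibitor p21, went from 7.67 ± 0.721 to 16.3 ± 0.617 RPKM, 0.997 on the log2 scale (limma adjusted p = 1.14e-06). CLU rose by 0.61 (limma adjusted p = 4.67e-05), DHRS2 by 0.49 (limma adjusted p = 5.19e-06) and HIST1H2BK by 0.25 (limma adjusted p = 0.000602). The linker histone gene H1F0 went the other way, from 478 ± 13.8 to 251 ± 1.87 RPKM, a log2 fold change of -0.93 (limma adjusted p = 1.03e-07). TXNIP, which binds thioredoxin, fell from 71.5 ± 2.30 to 37.8 ± 0.332 RPKM, -0.90 on the log2 scale (limma adjusted p = 1.13e-07), and GADD45B fell by 0.48 (limma adjusted p = 0.000158). HIST2H2BE fell by 0.13 (limma adjusted p = 0.0146), a call lost without TMM factors and after the GC and length correction, and GSN had a log2 fold change of -0.09 (limma adjusted p = 0.340), which passed the threshold without control replicate 1 (-0.17, limma adjusted p = 0.00816). Reads of both H2B genes are uncertain, because the family has near-identical copies.

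All 3 genes listed to fall were lower, beside 32.6% of all genes. CCND1, the G1 cyclin, fell by 0.49 on the log2 scale (limma adjusted p = 3.28e-06), CTPS1, which makes CTP, by 0.24 (limma adjusted p = 0.000126), and TYMS, which makes dTMP, by 0.18 (limma adjusted p = 0.00246). The TYMS call was lost without TMM factors and after the GC and length correction. The list holds genes of both usual directions, so movement of the whole list in both directions was built in. By usual direction, 4 of the 9 listed to rise rose and 4 fell, and the 3 listed to fall fell. CDKN1A and H1F0 lay at the ends.

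**Figure D5:**
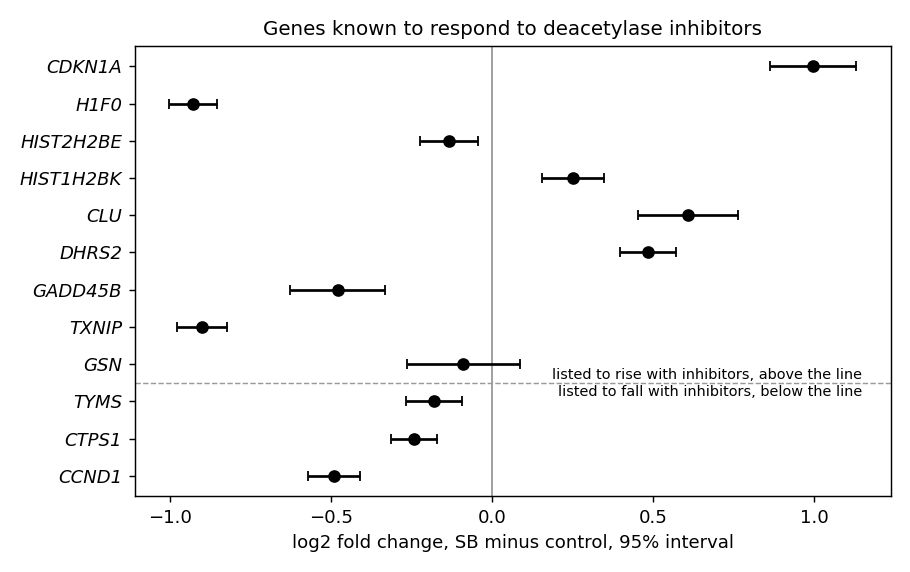
Log2 fold change with its 95% interval (horizontal axis, SB minus control) of 12 genes known to respond to deacetylase inhibitors. The 9 above the dashed line are listed to rise and the 3 below it to fall; CDKN1A at 0.997 and H1F0 at -0.93 lie at the ends.

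Genes with the pattern most like each enzyme were sought by the Pearson correlation of log2(RPKM + 1) over the 8 libraries, among 12544 genes with a mean of at least 1 RPKM. The libraries share their 2 groups, so a high r is common: between 1791 and 2458 genes had r above 0.9 with each enzyme. The pattern of HDAC2 also holds its high control replicate 1, at 62.8 RPKM beside 47.4 to 50.4 RPKM in the other controls. The part of that library in the r values was not tested. The nearest to HDAC1 were PDXDC2P, STARD3 and SEMA6B, with r from 0.9967 to 0.9979. For HDAC2 they were CNOT8, NSA2 and STK26 (r from 0.997 to 0.998), for HDAC3 LIG3, HOXC10 and SLC35B1 (r from 0.998 to 0.999), and for HDAC8 DDX55, FAM76A and RPS10 (r from 0.992 to 0.995).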

How the data were processed

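The RNA came from 8 cultures, 4 per group. Per the study's methods and the submitters' processing notes, stranded total RNA libraries were read as 50 base single reads, mapped to hg38 with TopHat2 2.1.0 and counted per gene with featureCounts 1.5.0. Genes above 1 CPM in at least 2 libraries were kept, and library sizes were TMM scaled in edgeR 3.16.5. The authors deposited RPKM per gene and library. The table also holds their own fold change, mean level, p-value and FDR, which were not used. Columns of per-sample values that were not used: 0.

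The RPKM were analysed with limma 3.58.1 in R 4.3.3 (lmFit, eBayes) on log2(RPKM + 1), all 8 libraries, no covariate, Benjamini-Hochberg adjustment over 14526 genes and a threshold of 0.05. The pseudocount lowers the fold change of genes at low RPKM. Whole reads were recovered from the RPKM for 100% of genes (within 0.08 reads) and used for depth, for voom and for fits without TMM factors. Single values were compared by exact two-sided permutation. The limma fit was tested on simulated data with few changed genes, balanced in direction, and no GC bias. That test therefore does not cover a table in which most genes are called, or the GC shift of control replicate 1.

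Partner genes named are, per list, up to 2 rises and 2 falls of the largest size past the threshold with a mean of at least 1 RPKM, all inhibitor response genes, and 3 nearest genes per enzyme; some genes that this rule names are not reported here, and others are said to be named after their values were seen. The members and lists were chosen with earlier results of these data known. Besides the values reported, 16 planned settings and 2 added ones were run: pseudocount 0.1, no TMM factors, median-of-ratios scaling, a mean of at least 1 RPKM, a replicate block, voom with and without it, an intensity trend, each library left out, and a GC and length correction with and without the block.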

Additional observations from a re-analysis of the deposited data

Results flagged for a closer look

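In 5 of 74 groups of 4 libraries, the highest or lowest library lay far from the rest: its gap to the nearest other library, divided by the whole range on the log2(RPKM + 1) scale, passed Dixon's 95% critical value. Chance flags about 1 in 20 groups, here about 3.7. For MTA1, control replicate 4 was the lowest, with a gap of 0.837 of the range. Control replicate 1 was the highest control for REST (0.845), RAD21 (0.860) and SIRT1 (0.885). For SIRT6, SB replicate 1 was the lowest of the SB libraries (0.831). The high control replicate 1 of HDAC2 had a gap of 0.783 of the range, below that value.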

How the results depend on the processing

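Of the 9 members, HDAC1, HDAC2, HDAC3, SIN3A, SIN3B, NCOR1 and MTA1 kept their direction and stayed past the threshold in all 18 other settings. HDAC8 did so in 17, losing the call without TMM factors. RCOR1 reversed to 0.052 without TMM factors. The counts of members higher and lower were 4 and 4 in every fit that left a library out.

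Without TMM factors, 5 Sin3, 5 NuRD, 3 CoREST, 1 MiDAC and 4 cohesin genes rose, and 3 CoREST, 1 NCoR, 1 MiDAC, 1 cohesin and 0 sirtuin genes fell. GSN reversed to 0.0067, and the summed class I level was 242 RPKM in control and 245 RPKM in SB. With the GC and length correction, with or without the block, 9 NuRD genes fell, 0 NCoR genes rose and HDAC11 reversed to -0.028, and 2 cohesin genes rose without the block. A mean of at least 1 RPKM left 1 NuRD gene higher, since CHD5, the other, is below that level. The pseudocount of 0.1 left 1 sirtuin lower, and voom with replicate block gave 2 cohesin genes higher. When single libraries were left out, MiDAC genes that rose ranged from 0 to 1 (1 without control replicate 4), cohesin genes that rose from 1 to 4 and that fell from 2 to 6, sirtuins that rose from 1 to 2 and that fell from 1 to 3 (3 without control replicate 1 and 1 without any other single library). HDAC11 ranged from -0.053 (reversed, without control replicate 1) to 0.069 (without control replicate 3). The causes were not tested.

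With the replicate number as a block, 4 members rose, 4 fell and 28 partner genes passed, as without it. Deviations of same-numbered libraries from their group means correlated at 0.38, 0.33, 0.17 and -0.16 for replicates 1 to 4, with a mean of 0.18 beside -0.05 between different numbers, and 4 of 8 libraries correlated best with their own number. Deviations from a group mean cancel within the group. The -0.05 is therefore tied to the 0.18 and is no separate baseline for it. Because replicate 4 did not deviate together and the labels give no shared batch, the numbers were not taken as pairs. Small differences of lowly expressed genes such as HIST2H2BE, with between 88 and 122 reads per library, are limited by depth. The p-values measure the spread between these cultures only.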
